A study of Mus musculus with 18 samples.

Results

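Long-term hematopoietic stem cells (LT-HSC) and short-term hematopoietic stem cells (ST-HSC) of adult mouse bone marrow (BM) were compared across all genes measured on an expression array. The comparison takes the 3 BM LT-HSC arrays and the 3 BM ST-HSC arrays, lettered a, b and c in the titles, which are 6 of the 18 arrays of the series. The other groups, also of 3 arrays each, were multipotent progenitors (MPP) of BM and the same populations of fetal liver (FL). All cells came from C57Bl/6J mice with no other genotype given, BM from adults of 3 to 12 months and FL from E13.5 embryos. Cells were sorted as LSK cells, that is lineage-negative cells with Sca-1 and Kit on their surface, and then split by surface Cd150 and Cd48, at gates not given in the sources used here. Free-text descriptions of the 6 arrays instead speak of mice that received a transplant and of sgLuc, a guide name. Titles, source names and stages say otherwise and set the groups here. Whether the arrays within a group stem from different animals is not labelled, and each p-value rests only on the spread between these samples, which may be technical.

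Blood stem cells are ordered by how long they rebuild blood after transplantation: LT-HSC do so for life, ST-HSC for a limited time, and MPP make blood cells with little self-renewal. LT-HSC of the adult marrow are mostly quiescent, and a share of them is known to express platelet genes such as Vwf. On the way to MPP the cells gain the receptor Flt3, the surface protein Cd34 and the first lymphoid genes. Levels are given as log2 signals, so that a difference of 1 is a doubling, and differences are LT-HSC minus ST-HSC with the standard error (SE) of the fit. A gene is named as higher or lower where the p of limma's moderated test, adjusted after Benjamini and Hochberg across the 19505 genes tested, was under 0.05.

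The sort markers were read first. Slamf1, which encodes Cd150, was at 9.95, 9.82 and 9.20 in LT-HSC a, b and c and at 8.22, 8.10 and 7.80 in ST-HSC, and it served for the gate. Kit was between 12.81 and 13.30 in all 6 arrays and did not pass. Cd48, on which the gates also rest, was at 9.58, 9.98 and 11.40 in LT-HSC and 10.27, 9.60 and 9.62 in ST-HSC. Array LT-HSC c thus held the highest Cd48 of the 6, and the difference of 0.49 ± 0.30 did not pass and was -0.048 without this array. Ly6a, which encodes Sca-1, was not analysed here. The Y-linked genes Kdm5d, Uty and Eif2s3y lay between 3.77 and 5.33 in these arrays and did not pass.

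Arrays did not spread their values equally. The interquartile range over genes was 2.99, 3.02 and 2.56 in LT-HSC a, b and c and 3.01, 2.59 and 2.62 in ST-HSC a, b and c, so that LT-HSC c, ST-HSC b and ST-HSC c form the narrow arrays. Array medians lay between 7.76 and 7.85. LT-HSC arrays correlated with each other at 0.960 to 0.991 over genes, ST-HSC arrays at 0.976 to 0.993, and LT-HSC with ST-HSC arrays at 0.955 to 0.986. LT-HSC c also stood apart in markers of mature cells. The mean of 18 neutrophil genes was 12.01 there, against 10.45 and 10.61 in LT-HSC a and b and 9.93 to 10.43 in ST-HSC. The mean of 15 B cell genes was 9.52 against 8.56, 8.57 and 7.93 to 8.18, and that of 19 macrophage and monocyte genes 8.55 against 7.53, 7.56 and 7.16 to 7.31, in the same order. For the main lists counts are given with and without these arrays, and for single genes mostly with arrays left out in turn. Leaving out all the narrow arrays keeps ST-HSC a as the sole ST-HSC array.

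Of the 19505 genes, 334 passed (1.71%), of which 236 were higher in LT-HSC (1.21%) and 98 lower (0.502%). All 3 LT-HSC arrays lay above all 3 ST-HSC arrays for 1369 genes (7.02%) and below them for 997 (5.11%). A difference of at least 2-fold was held by 158 of the called genes, 112 higher and 46 lower. The median difference over all genes was 0.0017. Higher genes made up 70.7% of the calls as deposited, 55.4% after median centring, 58.5% after repeated quantile normalization and 50.5% after scaling every array to a common median and interquartile range. The count was 812 without LT-HSC c, 685 without ST-HSC a, 152 without ST-HSC b, 101 without ST-HSC c, and 144 without the 3 narrow arrays. It was 260 to 431 without LT-HSC a or b. Of the 334 genes, 94 were called with each of the 6 arrays left out in turn, 55 higher and 39 lower.

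**Figure D1:**
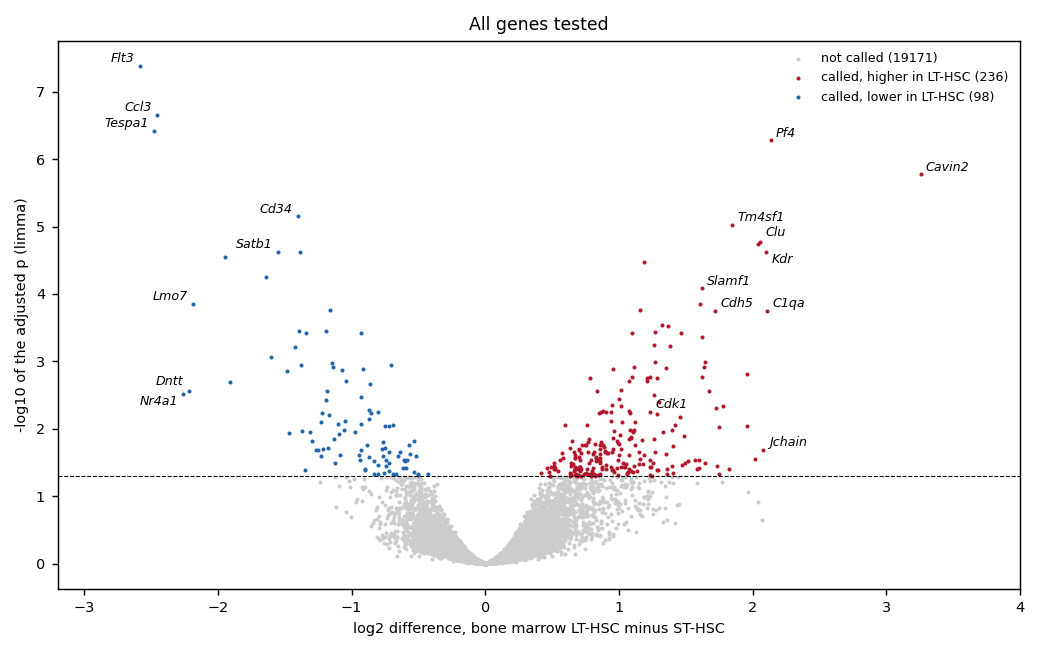
Difference between BM LT-HSC and ST-HSC (x axis, log2) against the -log10 of limma's Benjamini-Hochberg adjusted p (y axis) for all 19505 genes. The dashed line is an adjusted p of 0.05; 236 genes lie above it on the right and 98 on the left, with Cavin2 the farthest to the right and Flt3 the highest.

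Genes of platelets and of their parent cell, the megakaryocyte, stood among the largest differences. Cavin2, a coat protein of membrane caveolae, showed the largest difference of all called genes, at 9.58, 9.81 and 8.49 in LT-HSC a, b and c against 5.75, 6.06 and 6.29 in ST-HSC. The groups lay far apart and LT-HSC c was the lowest of its group: LT-HSC were 9.56-fold higher (3.26 ± 0.26, adjusted p = 1.69e-06). MPP, at 5.20 to 5.61, were below ST-HSC. Pf4, a chemokine stored in platelet granules, was at 12.03, 12.25 and 11.96 against 9.84, 10.20 and 9.80, a difference of 2.14 ± 0.16 (adjusted p = 5.22e-07). Vwf, the factor that tethers platelets to vessel walls, was at 9.67, 9.70 and 8.74 against 7.16, 7.52 and 7.31 (2.04 ± 0.20). Clu, a chaperone secreted from platelets, was at 9.73, 10.02 and 8.99 against 7.45, 7.54 and 7.59 (2.05 ± 0.20). For these 4 genes the lowest LT-HSC array exceeded the highest ST-HSC array by more than the range within ST-HSC, and each kept its call with any of the 6 arrays left out.

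Of 24 platelet and megakaryocyte genes measured, 13 were higher and 1 was lower, with a median difference of 0.99. Integrin alpha IIb (Itga2b) and integrin beta 3 (Itgb3), which pair into the platelet receptor for fibrinogen, were higher by 1.16 ± 0.14 and 1.08 ± 0.21. Itga2b was at 11.02, 11.12 and 10.74 in LT-HSC and 9.58, 9.93 and 9.89 in ST-HSC. The 3 LT-HSC arrays also lay above the 3 ST-HSC arrays for Treml1, a receptor of platelet granules (1.19 ± 0.13), Rab27b, a GTPase of granule release (1.26 ± 0.17), and Gp5, a glycoprotein of the receptor for Vwf (0.94 ± 0.17). Clec1b, the platelet receptor for podoplanin, was at 8.19, 8.14 and 9.55 against 7.07 to 7.22 (1.49 ± 0.29), and Mmrn1, a carrier of factor V, differed by 1.11 ± 0.21. P-selectin (Selp) and the thrombin receptor F2r were higher by 0.72 ± 0.15 and 0.71 ± 0.16. The exception was thrombospondin Thbs1, an adhesive protein of platelet granules, at 9.21, 8.66 and 9.35 in LT-HSC and 9.97, 10.07 and 9.99 in ST-HSC (-0.94 ± 0.21). Treml1, Rab27b, Gp5, Clec1b, Mmrn1, F2r and Thbs1 were picked from the list after their values were seen.

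The platelet genes named above kept their direction as arrays were left out, while some calls went. The number higher was 11, 12 and 16 without LT-HSC a, b and c, 13, 11 and 8 without ST-HSC a, b and c, and 12 without the 3 narrow arrays, and the median then was 1.05. Of all genes, 1.49%, 0.933% and 2.93% were higher without LT-HSC a, b and c, 2.6%, 0.451% and 0.308% without ST-HSC a, b and c, and 0.467% without the narrow arrays. In a fit of only the 6 arrays compared, which has fewer arrays to estimate the spread, 2 were higher, against 0.0308% of all genes (and 0.0256% lower). The median SE over all genes was 0.192 in this fit and 0.167 in the main fit. Itgb3 and Clec1b lost their calls without ST-HSC c (adjusted p = 0.0575 and 0.0642), and Mmrn1 lost its call without ST-HSC b or c (0.0645 and 0.0707). Thbs1 lost its call without LT-HSC b, ST-HSC b or ST-HSC c (0.114, 0.108 and 0.11). Selp lost its call without LT-HSC a, LT-HSC b or ST-HSC c (0.0571, 0.073 and 0.151), and F2r lost its call without any of these or ST-HSC b (0.0821, 0.111, 0.138 and 0.115). In bulk samples such as these, fewer cells that express a gene cannot be told apart from less of its RNA in each cell.

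**Figure D2:**
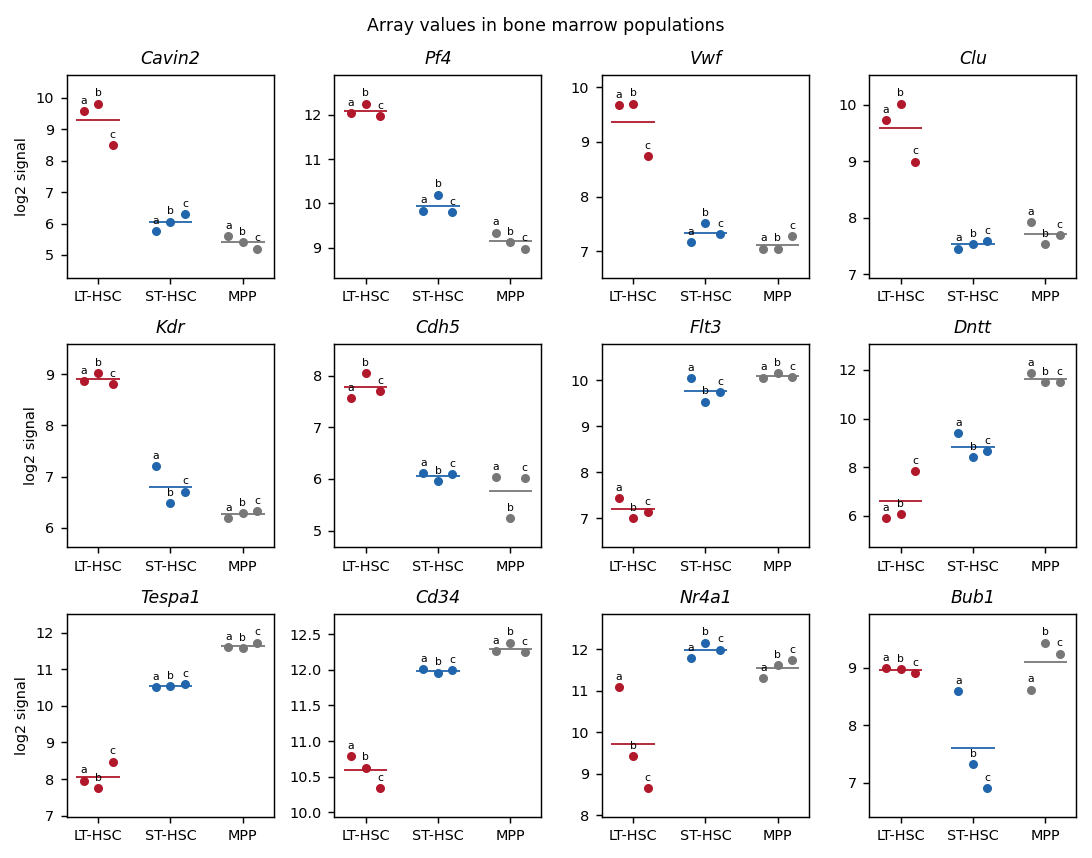
Log2 signal (y axis) of 12 genes in each BM array, with points lettered by array and a line at the group mean of 3 arrays. Cavin2, Pf4, Vwf, Clu, Kdr and Cdh5 are high in LT-HSC, Flt3, Dntt, Tespa1 and Cd34 are low there, and Nr4a1 and Bub1 vary widely within LT-HSC and within ST-HSC, respectively.

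Some genes known from blood vessels were higher in LT-HSC, among them 4 of 18 endothelial genes. Kdr, the main receptor for vascular endothelial growth factor, was at 8.87, 9.02 and 8.80 in LT-HSC and 7.20, 6.48 and 6.70 in ST-HSC (2.10 ± 0.21). Cdh5, the cadherin of endothelial junctions, was at 7.57, 8.05 and 7.71 against 6.12, 5.96 and 6.09 (1.72 ± 0.21). Tm4sf1, a membrane protein abundant in endothelium, was at 8.58, 8.18 and 8.26 against 6.36, 6.69 and 6.43 (1.85 ± 0.17). These genes separated the groups by more than the spread within either and kept their calls with each of the 6 arrays left out. Of the 18 endothelial genes, 4 were higher, 0 lower by limma, with 9 higher and 1 lower at an unadjusted p under 0.05, and the median was 0.35. At this unadjusted p 8.01% of all genes were higher and 4.63% lower in the main fit. Such counts of list members in that fit are to be read against these shares. Beside Kdr and Cdh5 the called endothelial genes were the tight junction gene Cldn5 (1.59 ± 0.38) and the scavenger receptor gene Stab1 (1.27 ± 0.27). Cldn5 lost its call without LT-HSC b, LT-HSC c, ST-HSC b or ST-HSC c (adjusted p = 0.147, 0.0613, 0.0937 and 0.186), and Stab1 without ST-HSC b or c (0.0645 and 0.0896). The count of endothelial genes higher was 6 without LT-HSC c, 2 without ST-HSC b or c, and 3 without the narrow arrays, and 1 was lower without LT-HSC a. The mean over the list was 8.05, 8.04 and 7.74 in LT-HSC a, b and c and 7.38 to 7.51 in ST-HSC, and its part in these results was not tested.

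Of 30 surface and reporter genes used to mark HSC, 4 were higher and 1 was lower (median 0.29). Nupr1, a stress-induced nuclear protein, was at 9.43, 9.93 and 9.42 in LT-HSC and 8.62, 7.89 and 8.11 in ST-HSC (1.38 ± 0.19). The tetraspanin Cd9 was at 11.04, 11.50 and 11.56 against 10.28, 10.29 and 10.24 (1.10 ± 0.17), with all LT-HSC arrays above all ST-HSC arrays. Clca3a1, a chloride channel accessory protein, was higher by 1.12 ± 0.21, a call lost without ST-HSC c (adjusted p = 0.0678), and Itgb3 was the other. Without LT-HSC c, in which the mean of this list was 8.62 against 9.45 and 9.46 in LT-HSC a and b, 15 were higher, and without ST-HSC c 2 were. Of all genes, 2.93% and 0.308% were higher in these fits, in this order. Leaving out the 3 narrow arrays left 1. The transforming growth factor coreceptor Tgfbr3 was at 11.35, 11.39 and 10.22 against 10.06, 9.51 and 9.53 (1.29 ± 0.23), and without ST-HSC c its adjusted p was 0.0505. P3h2, an enzyme that hydroxylates collagen, was at 8.06, 8.66 and 6.88 against 5.62, 5.69 and 6.42 (1.96 ± 0.37), and Ehd3, an ATPase of endosome recycling, at 8.43, 8.72 and 7.47 against 6.69, 6.22 and 6.38 (1.78 ± 0.30). LT-HSC c was the lowest of its group in both and above each ST-HSC array. Both genes were called with arrays left out in turn but not in every alternative fit, where the smallest differences were 1.56 and 1.51. The hypoxia factor Epas1 was at 7.77, 7.92 and 8.06 against 7.10, 7.19 and 7.09 (0.79 ± 0.12).

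Of the transcription factors of HSC, limma called 4% lower and 0% higher, against 0.502% and 1.21% of all genes. Of 25 measured, 0 were higher and 1 was lower by limma, with 3 higher and 7 lower at an unadjusted p under 0.05, and the median was -0.05. Hlf, a factor of HSC maintenance, was at 11.73, 11.38 and 10.48 in LT-HSC and 12.08, 12.01 and 12.20 in ST-HSC (-0.90 ± 0.21). The call was lost without LT-HSC b, ST-HSC b or ST-HSC c (adjusted p = 0.0512, 0.0967 and 0.181). Mecom, a zinc finger factor of LT-HSC, was at 10.74 and 10.64 in LT-HSC a and b but 9.51 in LT-HSC c, against 10.12 to 10.34 in ST-HSC. It did not pass (0.05 ± 0.26), and neither did Mycn (0.71 ± 0.24), Nkx2-3 (-0.65 ± 0.17) or Egr1 (-0.81 ± 0.39). The list mean was 10.18, 10.03 and 9.36 in LT-HSC a, b and c and 9.87 to 10.04 in ST-HSC, so LT-HSC c was the lowest of the 6. Without it 4 of the 25 were higher and 1 lower, against 2.93% and 1.23% of all genes. Without LT-HSC a 3 were lower, against 0.723%. Of 27 Hox genes, 0 were called by limma, with 1 higher at an unadjusted p under 0.05.

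Flt3 and some genes of the lymphoid path were lower in LT-HSC, while members of the lymphoid-priming list lay on either side of 0. Flt3, the receptor tyrosine kinase that multipotent cells gain, was at 7.44, 7.001 and 7.13 in LT-HSC and 10.05, 9.54 and 9.75 in ST-HSC, a 6.01-fold difference with no overlap (-2.59 ± 0.15, adjusted p = 4.1e-08). MPP lay at 10.06 to 10.16, just above ST-HSC. Tespa1, an adaptor of T cell receptor signalling, was at 7.96, 7.76 and 8.48 against 10.52, 10.53 and 10.59 (-2.48 ± 0.18), with MPP at 11.57 to 11.73. Dntt, the enzyme that extends antigen receptor joints without a template, was at 5.91, 6.09 and 7.83 against 9.40, 8.42 and 8.67 (-2.22 ± 0.36). LT-HSC c was the highest of its group for Dntt and still below each ST-HSC array, and MPP reached 11.51 to 11.87. Satb1, a chromatin organiser of lymphoid cells, was at 7.57, 7.95 and 8.01 against 9.51, 9.10 and 9.57 (-1.55 ± 0.16).

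Of 17 lymphoid-priming genes, 4 were lower and 1 was higher, with 8 differences positive and 9 negative and a median over the list of -0.0013. The lower genes were Flt3, Dntt, Satb1 and Lax1, an adaptor that dampens lymphocyte receptors (-1.35 ± 0.32). Lax1 lost its call without LT-HSC c, ST-HSC a, ST-HSC b or ST-HSC c (adjusted p = 0.0659, 0.0552, 0.0763 and 0.204). The higher gene was Il7r, the receptor for the lymphoid cytokine interleukin-7, at 7.27, 7.51 and 8.74 against 6.56, 6.35 and 6.84 (1.26 ± 0.29), lost without ST-HSC b or c (0.137 and 0.0716). Il7r was thus highest in LT-HSC c and opposite in sign to the other called members. Without the 3 narrow arrays 3 were lower and 0 higher, and without LT-HSC a 4 were lower and 2 higher.

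Cd34, the sialomucin whose absence marks LT-HSC of adult mice, was at 10.79, 10.63 and 10.34 in LT-HSC and 12.01, 11.96 and 12.00 in ST-HSC. The ST-HSC arrays lay within a narrow band far above LT-HSC (-1.40 ± 0.13, adjusted p = 7.02e-06). Clnk, an adaptor of immune receptors, was at 7.70, 7.75 and 7.16 against 9.55, 9.41 and 9.50 (-1.95 ± 0.20), and Lmo7, a protein of cell junctions, at 4.76, 4.57 and 3.77 against 6.97, 6.76 and 5.92 (-2.18 ± 0.26). Both separated the groups, Lmo7 at low signals. Il1r1, the receptor for interleukin-1, was at 6.64, 7.35 and 7.17 against 8.76, 8.09 and 8.76 (-1.49 ± 0.22). H2-Ob, which encodes a chain of H2-O, was the 1 member of 10 MHC class II genes that was lower (-1.16 ± 0.14, at 9.29 to 9.42 against 10.31 to 10.73). Its probes may also match related H2 genes. Of these genes, Flt3, Tespa1, Clnk and Cd34 kept their calls in every alternative fit tried, the fit of 6 arrays included.

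Among the largest differences toward ST-HSC were also the following 5 genes, which are on none of the lists. Ccl3, a chemokine for monocytes and T cells, was at 9.23, 8.74 and 9.32 in LT-HSC and 11.65, 11.37 and 11.64 in ST-HSC (-2.45 ± 0.17, adjusted p = 2.22e-07). Its neighbour in function Ccl4 was at 9.25, 8.95 and 8.50 against 10.60, 10.50 and 10.53 (-1.64 ± 0.18). In both, no LT-HSC array came near the lowest ST-HSC array. Cd69, an early activation antigen of lymphocytes, was at 10.08, 9.19 and 9.30 against 11.13, 11.12 and 11.13 (-1.60 ± 0.23). Rgs1, a brake on chemokine receptor signalling, was at 10.91, 10.51 and 9.24 against 11.82, 12.30 and 12.26 (-1.91 ± 0.30). Wfdc17, a small secreted protease inhibitor, was at 8.17, 8.05 and 8.96 against 9.87, 9.70 and 9.88 (-1.42 ± 0.20). Each of these 5 genes separated the groups and was called with each of the 6 arrays left out. Only Ccl3 of them kept its call in every alternative fit. Over these fits, those without the narrow arrays included, the smallest difference in size was 1.11 for Rgs1 and 1.44 for Cd69.

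Immediate early genes are switched on within minutes of a signal, without new protein synthesis. Of 32 measured, 0 were higher and 8 were lower by limma, with 0 higher and 20 lower at an unadjusted p under 0.05, and the median was -0.67. A short element that binds the factor CREB is known from promoters of this class, so the 250 bases before the start of transcription are shown for the 3 called genes in which they hold the letters TGACG or, on the other strand, CGTCA. The letters found are in capitals and the sequences run 5' to 3' on the strand of the gene, from RefSeq on GRCm38.p6: Nr4a1 at chr15:101266596-101266845 (plus strand), Atf3 at chr1:191183334-191183583 (minus strand) and Fos at chr12:85473640-85473889 (plus strand).
Nr4a1: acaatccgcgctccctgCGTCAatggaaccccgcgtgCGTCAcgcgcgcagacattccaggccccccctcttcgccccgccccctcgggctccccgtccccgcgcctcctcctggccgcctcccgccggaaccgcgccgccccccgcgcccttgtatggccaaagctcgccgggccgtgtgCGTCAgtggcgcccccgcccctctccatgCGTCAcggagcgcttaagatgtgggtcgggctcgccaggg
Atf3: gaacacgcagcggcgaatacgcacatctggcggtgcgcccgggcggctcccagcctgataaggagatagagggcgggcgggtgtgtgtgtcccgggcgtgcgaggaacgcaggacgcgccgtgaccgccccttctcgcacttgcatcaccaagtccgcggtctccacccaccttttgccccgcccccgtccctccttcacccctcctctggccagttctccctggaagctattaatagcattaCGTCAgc
Fos: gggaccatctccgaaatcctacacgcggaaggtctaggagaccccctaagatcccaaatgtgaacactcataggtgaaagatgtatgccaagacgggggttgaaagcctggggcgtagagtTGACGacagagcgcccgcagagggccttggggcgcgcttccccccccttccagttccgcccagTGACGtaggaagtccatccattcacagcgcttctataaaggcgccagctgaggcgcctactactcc
The match began at -233, -213, -69 and -40 before the start in Nr4a1, at -7 in Atf3 and at -129 and -66 in Fos. Among all 32851 promoter windows of this length, 17.8% held at least 1 match, 3.90% at least 2 and 0.137% at least 4. Of the immediate early genes, 27 had 31 windows, of which 14 held a match (45.2%), and of the 8 called genes 7 had a window and 3 a match. A match describes letters only and is no evidence of binding.

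Nr4a1, an orphan nuclear receptor, was at 11.10, 9.42 and 8.66 in LT-HSC a, b and c and 11.79, 12.17 and 12.00 in ST-HSC (-2.26 ± 0.37, adjusted p = 0.00301). Fos, a subunit of the factor AP-1, was at 11.40, 10.70 and 9.96 against 11.85, 11.87 and 11.99 (-1.21 ± 0.25). The 3 LT-HSC arrays spread widely and LT-HSC a came close to ST-HSC in both genes. Atf3, a stress-induced repressor, was at 8.07, 7.82 and 8.72 against 9.19, 9.89 and 9.93 (-1.47 ± 0.28). Nfkbiz, a nuclear regulator of NF-kB targets, was at 11.02, 10.18 and 9.62 against 11.24, 11.71 and 11.67 (-1.27 ± 0.27). The remaining called members, chosen for naming after their values were seen, were the phosphatases Dusp2 (-1.09 ± 0.21) and Dusp6 (-0.67 ± 0.16), the zinc finger factor Klf6 (-0.87 ± 0.19) and Ier5 (-0.53 ± 0.11).

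The list mean was 9.88, 9.39 and 9.12 in LT-HSC a, b and c and 10.08, 10.08 and 10.13 in ST-HSC, so that all LT-HSC arrays were below but by unequal amounts. The number called lower was 15 without LT-HSC a, 4 without LT-HSC b, 8 without LT-HSC c or ST-HSC a, 3 without ST-HSC b, 1 without ST-HSC c and 0 without the 3 narrow arrays, where 9 were lower at an unadjusted p under 0.05 (4.27% of all genes) and the median was -0.40. With arrays scaled to a common median and interquartile range 14 were lower, against 1.18% of all genes, and with the interquartile range as a covariate, added after the data were seen, 17 were, against 1.51%. Of all genes, 0.723%, 0.4% and 1.23% were lower without LT-HSC a, b and c, 0.913%, 0.328% and 0.21% without ST-HSC a, b and c, and 0.272% without the narrow arrays. Only Nr4a1 of the 8 kept its call with each array left out, and without the narrow arrays it was not called. Fos lost its call without ST-HSC b or c (adjusted p = 0.0645 and 0.103), Dusp2 and Ier5 without ST-HSC c (0.0678 and 0.103), and Atf3, Nfkbiz and Klf6 without LT-HSC b (0.0521, 0.0588 and 0.0986), ST-HSC b (0.0645, 0.0937 and 0.11) or ST-HSC c (0.0833, 0.11 and 0.147). Dusp6 lost its call without any 1 array but LT-HSC c, at 0.0636 to 0.211.

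Of 52 genes of the G2 and M phases, 17 were higher, 0 lower by limma, and all 52 had a positive difference, with 41 higher at an unadjusted p under 0.05 and a median of 0.64. Cdk1, the kinase that drives entry into mitosis, was at 11.05, 11.46 and 11.48 in LT-HSC and 10.68, 10.06 and 9.55 in ST-HSC (1.23 ± 0.22). Bub1, a spindle checkpoint kinase, was at 8.997, 8.98 and 8.91 against 8.59, 7.33 and 6.91 (1.35 ± 0.29), and Nuf2, part of the outer kinetochore, at 9.29, 9.38 and 10.02 against 8.80, 8.20 and 7.90 (1.26 ± 0.25). In each, ST-HSC a lay near LT-HSC and ST-HSC b and c lay lower. MPP were close to LT-HSC, with Cdk1 at 11.40 to 11.58 and Bub1 at 8.62 to 9.44.

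The list mean of the G2 and M genes was 9.79, 9.91 and 9.93 in LT-HSC, 9.62, 9.15 and 8.92 in ST-HSC a, b and c and 9.95 to 10.13 in MPP. Of the narrow arrays, ST-HSC b and c held the lowest means of the 6 and LT-HSC c the highest. The part of the narrow spread in this difference was not tested. With every array scaled to a common median and interquartile range 16 were higher (median 0.59, against 1.2% of all genes), and with the interquartile range as a covariate 25 were (median 0.59, against 2.76%). The number of members higher was 32 without ST-HSC a, 4 without ST-HSC b, 3 without ST-HSC c, 16, 9 and 19 without LT-HSC a, b and c, and 0 without ST-HSC b and c together or without the 3 narrow arrays. In these last fits 8 and 6 were higher at an unadjusted p under 0.05, against 4.46% and 4.73% of all genes, and the medians were 0.26 and 0.22. In the fit of only the 6 arrays 0 were called by limma, with 36 higher at an unadjusted p under 0.05. At that unadjusted p 1332 of all 19505 genes passed in this fit, both directions together. Without ST-HSC b and c together 0.123% of all genes were higher and 0.118% lower. Cdk1 kept its call with each array left out. Bub1 lost its call without LT-HSC b, ST-HSC b or ST-HSC c (adjusted p = 0.0579, 0.112 and 0.149) and Nuf2 without ST-HSC b or c (0.0645 and 0.106). Of 43 S phase genes, 1 was higher, the deubiquitinase gene Usp1 (0.52 ± 0.12), 0 were lower, 10 were higher at an unadjusted p under 0.05, and the median was 0.24. Usp1 lost its call without LT-HSC b, ST-HSC b or ST-HSC c (0.121, 0.158 and 0.171). The S phase genes higher numbered 10 without ST-HSC a, 4 without LT-HSC c, and 21 with array weights, a fit in which 14.2% of all genes were higher and 11.2% lower. That fit called 18 platelet, 17 surface and reporter and 45 G2 and M genes higher, and 2, 1 and 0 of them lower, in this order. Its weights were 0.16 for LT-HSC c and 0.25 for ST-HSC a, against 1.08 to 1.96 for the other arrays compared.

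Of 23 inhibitors of the cell cycle and quiescence genes, 1 was higher and 1 lower, with a median of 0.065. Cdkn1a, which encodes the inhibitor p21, was lower, at 9.80, 9.03 and 8.66 in LT-HSC and 10.29, 10.32 and 10.28 in ST-HSC (-1.13 ± 0.22). It lost its call without ST-HSC b or c (adjusted p = 0.0559 and 0.0642). Cdkn2b, the inhibitor p15, was higher by 0.42 ± 0.10 and lost its call without any 1 array but LT-HSC a (0.0518 to 0.164).

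**Figure D3:**
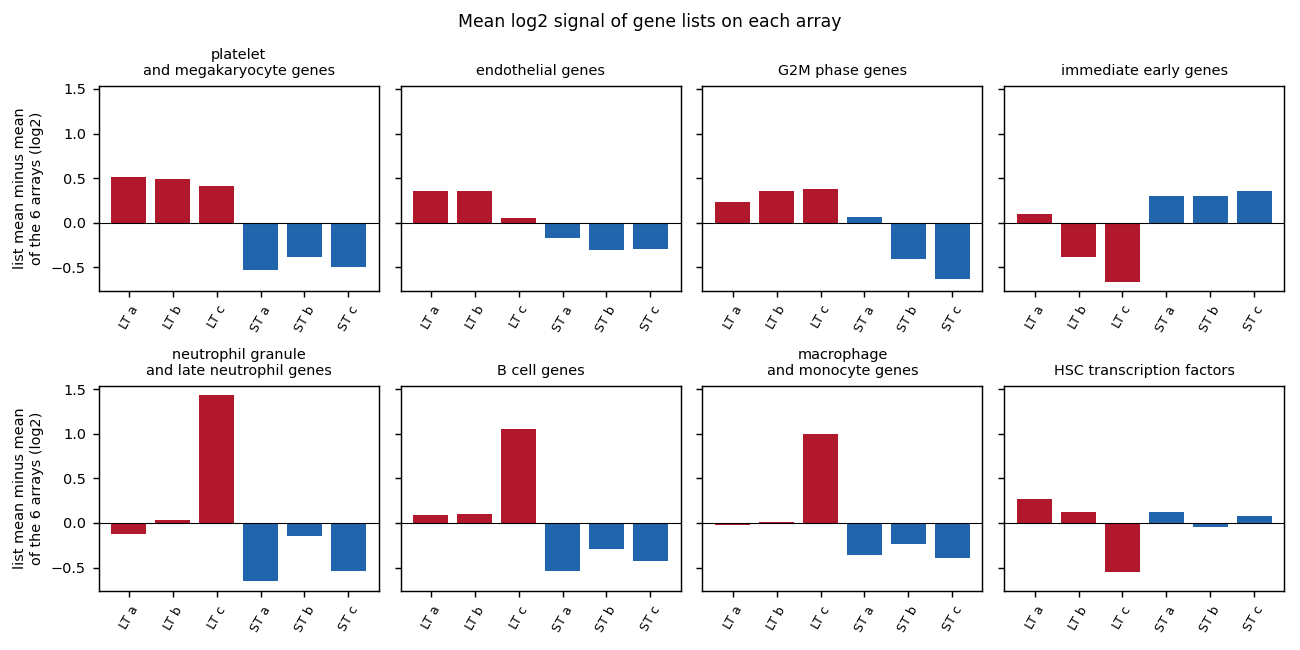
Mean log2 signal of 8 gene lists on each of the 6 arrays, drawn as the difference from the mean of the 6 (y axis, log2), with LT-HSC in red and ST-HSC in blue. Platelet genes separate the groups evenly, G2M genes are lowest in ST-HSC b and c, immediate early genes are lowest in LT-HSC c, and neutrophil, B cell and macrophage genes stand out in LT-HSC c.

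**Figure D4:**
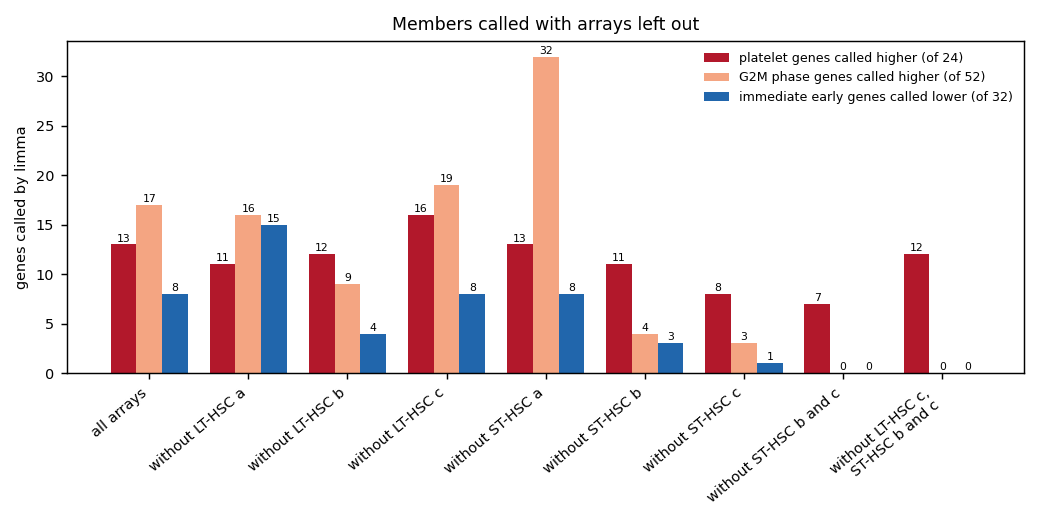
Number of list members called by limma (y axis) with all arrays and with the arrays named on the x axis left out. Platelet genes higher in LT-HSC number 7 to 16 in each case, while G2M genes higher and immediate early genes lower fall to 0 without ST-HSC b and c and without the 3 narrow arrays.

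The means of the neutrophil, B cell, macrophage, T and NK cell, stromal, and mast cell lists were highest of the 6 arrays in LT-HSC c, while that of the erythroid genes was highest in ST-HSC a (9.85, against 9.77 in LT-HSC c) and the endothelial mean was lowest of the LT-HSC arrays in LT-HSC c. Of 18 neutrophil genes all had a positive difference and 3 were higher, 0 lower by limma (11 higher at an unadjusted p under 0.05), with a median of 0.98, which was 0.38 without LT-HSC c. Ifitm6, an interferon-induced membrane protein of myeloid cells, was at 8.35, 8.21 and 10.46 in LT-HSC and 6.94, 7.80 and 7.04 in ST-HSC (1.75 ± 0.43). The gelatinase Mmp9 was at 9.89, 10.15 and 11.19 against 9.22 to 9.42 (1.11 ± 0.26), and lysozyme Lyz2 at 10.57, 11.13 and 12.12 against 10.12 to 10.28 (1.06 ± 0.26). LT-HSC c was the highest array in all 3, and the call of Ifitm6 was lost without it (adjusted p = 0.0532), as was that of Lyz2 (0.0534). Without ST-HSC a, b or c none of the 3 was called, with Ifitm6 at 0.0802, 0.0614 and 0.208, Mmp9 at 0.0533, 0.0852 and 0.141 and Lyz2 at 0.0544, 0.113 and 0.186. Lyz2 was also lost without LT-HSC b (0.0697). The number of neutrophil genes higher was 7, 3 and 1 without LT-HSC a, b and c and 12 with the interquartile range as a covariate. It was 1 after median centring, repeated quantile normalization or scaling to a common median and interquartile range. In these fits 170, 278 and 235 of the 19505 genes were higher. It was 0 without ST-HSC a, b or c, with only the 6 arrays compared or the 9 bone marrow arrays, and with a replicate block. Of all genes, 1.49%, 0.933% and 2.93% were higher without LT-HSC a, b and c. Without ST-HSC a, b and c these were 2.6%, 0.451% and 0.308%, and with the covariate 2.76%. Counts for the lists below are to be read against these shares too.

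Of 15 B cell genes, all with a positive difference, 4 were higher, 0 lower by limma (12 higher at an unadjusted p under 0.05), with a median of 0.79, which was 0.49 without LT-HSC c. Ebf1, a factor that commits cells to the B lineage, was at 10.04, 10.22 and 10.40 in LT-HSC and 8.64, 9.11 and 9.11 in ST-HSC (1.26 ± 0.21), with LT-HSC c close to its group. It was called with each array left out but not in the fit of only the 6 arrays compared. Jchain, the joining chain of antibodies, was at 8.32, 8.90 and 10.89 against 7.20, 7.70 and 6.96 (2.08 ± 0.44). Jchain lost its call without ST-HSC c (adjusted p = 0.117). Pax5, the factor of B cell identity, and Vpreb1, part of the surrogate light chain, were higher by 1.24 ± 0.28 and 1.23 ± 0.29. Pax5 lost its call without LT-HSC c, ST-HSC b or ST-HSC c (0.0532, 0.115 and 0.113) and Vpreb1 without these or ST-HSC a (0.0618, 0.0645, 0.138 and 0.0654). The number of B cell genes higher was 2 without LT-HSC c or ST-HSC b, 1 without ST-HSC c or without the narrow arrays, and 10 with the covariate.

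Of 19 macrophage and monocyte genes, 4 were higher, 0 lower by limma (8 higher and 1 lower at an unadjusted p under 0.05), with a median of 0.38 and of 0.16 without LT-HSC c. C1qa, a chain of complement C1q, was at 8.81, 9.06 and 10.17 in LT-HSC and 6.89, 7.63 and 7.19 in ST-HSC (2.11 ± 0.26), so that LT-HSC a and b alone also lay above ST-HSC, and it was called with each array left out. So was Aif1, a calcium-binding protein of macrophages that is not on this list, at 6.55, 7.04 and 7.997 against 4.82, 5.72 and 5.15 (1.96 ± 0.30). C1qa and Aif1 lost their calls in the fit of only the 6 arrays compared. Csf1r, the receptor for macrophage colony-stimulating factor, was at 8.30, 8.98 and 10.08 against 7.45 to 7.88 (1.41 ± 0.29), lost without ST-HSC b or c (adjusted p = 0.0521 and 0.0601). The mannose receptor gene Mrc1 was at 7.31, 8.29 and 9.38 against 6.29 to 6.90 (1.82 ± 0.43), lost without LT-HSC b or c (0.084 and 0.0718) or ST-HSC b or c (0.146 and 0.176). Mertk, a receptor for dying cells, was higher by 0.96, lost without LT-HSC c (0.072) or ST-HSC a, b or c (0.0581, 0.089 and 0.183). The number of list members higher was 1 without ST-HSC b or c, 2 without the narrow arrays and 7 with the covariate.

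Of 16 stromal genes, 2 were higher and 1 was lower. The matrix proteins Sparc, at 11.24, 10.75 and 12.16 in LT-HSC against 8.97, 9.29 and 9.84 in ST-HSC (2.02 ± 0.45), and Fn1, fibronectin, at 10.04, 10.10 and 11.58 against 8.65 to 8.99 (1.75 ± 0.33), were both highest in LT-HSC c. Sparc lost its call without LT-HSC c (adjusted p = 0.0527) or ST-HSC a, b or c (0.0544, 0.0983 and 0.0575), and Fn1 without ST-HSC c (0.0636). The growth factor receptor gene Pdgfrb was lower by -0.89 ± 0.18, lost without LT-HSC b or ST-HSC c (0.0603 and 0.0575). The stromal genes higher numbered 5 without LT-HSC b or with the covariate, 3 without LT-HSC a, 1 without LT-HSC c, ST-HSC a or ST-HSC b, and 0 without ST-HSC c. Of 17 T and NK cell genes the 1 called was Klrb1c, which encodes NK1.1, at 7.67, 7.35 and 7.85 against 6.32, 6.02 and 6.41 (1.37 ± 0.17), evenly high in the 3 LT-HSC arrays. Of 17 erythroid genes and 14 mast cell, basophil and eosinophil genes limma called 0, with 1 and 5 higher at an unadjusted p under 0.05, and 3 of the latter list were higher without LT-HSC a and 5 with the covariate. In LT-HSC c the mean of the mast cell, basophil and eosinophil genes was 8.51, against 7.44 and 7.37 in LT-HSC a and b and 7.08 to 7.39 in ST-HSC. The part of these other cells in the results was not tested.

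The other lists held few calls in number, but the shares of some exceeded those of all genes (1.21% higher and 0.502% lower). Higher in the main fit were 14.8% of the adhesion receptors, 13.3% of the cytokine receptors and 8.70% of the glycolysis and hypoxia genes. The lists named last held 0 calls in that fit. Of 25 myeloid-priming genes, Csf1r was the 1 called (median 0.36). Of these, 6 were higher without LT-HSC a, 2 without LT-HSC b, 0 without ST-HSC b or c and 8 with the covariate, while without LT-HSC c 1 was higher and 1 lower and the median fell to 0.0098. Of 40 interferon response genes, Ifit2 was higher (0.87 ± 0.20) and Ifi27 lower (-0.57 ± 0.12), and both lost their calls without ST-HSC b (adjusted p = 0.134 and 0.0876) or ST-HSC c (0.204 and 0.0983), Ifit2 also without LT-HSC a or b (0.117 and 0.122). Of 23 genes of glycolysis and hypoxia, Epas1 and the phosphofructokinase gene Pfkp (0.70 ± 0.16) were higher and the oxygen sensor gene Egln3 lower (-0.93 ± 0.20). Pfkp lost its call without LT-HSC a or ST-HSC a, b or c (0.0919, 0.0503, 0.102 and 0.141) and Egln3 without ST-HSC c (0.0873). Of 30 cytokine and growth factor receptors 4 were higher and 2 lower (6.67%). Without ST-HSC b 1 was higher and without ST-HSC c 0 were, against 0.451% and 0.308% of all genes. Of 27 adhesion and homing receptors 4 were higher, namely Selp, Itgb3, Itga2b and Itgb2, the beta 2 integrin of leukocytes (0.87, lost without any 1 array but LT-HSC a, at 0.0512 to 0.159). The adhesion genes higher numbered 7 without LT-HSC c, 2 without LT-HSC b and 1 without ST-HSC c. Of all genes, 2.93%, 0.933% and 0.308% were higher in these fits, in this order. Of 11 SLAM family genes, Slamf1 was higher and Ly9 lower (-0.59 ± 0.14), the latter lost without LT-HSC a or b (0.103 and 0.106) or ST-HSC a or c (0.0753 and 0.162). Among 15 MHC class I, 22 ribosome biogenesis, 34 oxidative phosphorylation, 14 retinoid and 20 imprinted genes limma called 0, and at an unadjusted p under 0.05 there were 0, 2, 5, 3 and 3, in this order. With array weights 13 oxidative phosphorylation genes were higher and 0 lower, against 14.2% and 11.2% of all genes, and fewer were called in the others.

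The same contrast in FL, which shares no array with that in BM, called 18 genes higher (0.0923%) and 91 lower (0.467%). The difference between the contrasts was tested directly as an interaction, and 74 genes passed (0.379%), 64 with a larger (0.328%) and 10 with a smaller value (0.0513%) in BM. Platelet and endothelial genes were among them. The genes given here were named with their BM differences known, which the interaction contains, so their gaps tend to be overstated. Cavin2 was higher in LT-HSC by 3.26 in BM and by 1.02 ± 0.26 in FL, a gap of 2.24 ± 0.37 (adjusted p = 0.00798), and Pf4 by 2.14 in BM and 0.84 ± 0.16 in FL. Cdh5 and Tm4sf1 differed by 1.72 and 1.85 in BM but by 0.04 and -0.06 in FL. Of the genes lower in LT-HSC of BM, Dntt, Clnk and Lmo7 had differences of 0.21, 0.05 and 0.14 in FL, and the interaction passed for all 3. Flt3 and Ccl3 were lower in both sources (-1.98 and -1.92 in FL), and their interaction did not pass (adjusted p = 0.27 and 0.368). Among the G2 and M genes and the immediate early genes the interaction passed for 0 members by limma, against 23 and 7 at an unadjusted p under 0.05 (12.6% of all genes), and their FL medians were 0.16 and -0.14. The interaction count was 40 without ST-HSC c and 517 without LT-HSC c.

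**Figure D5:**
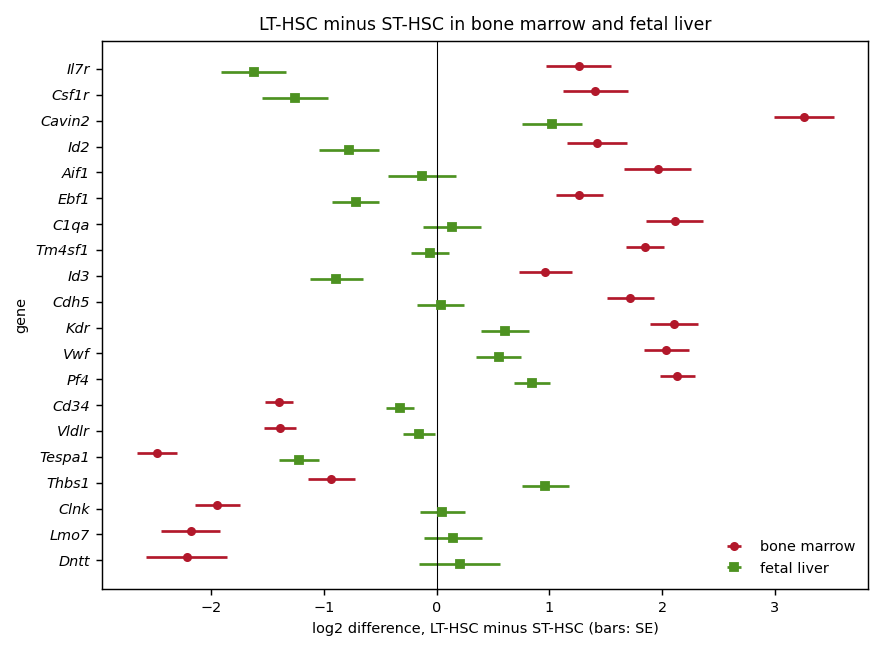
LT-HSC minus ST-HSC difference (x axis, log2, with SE bars) in BM and in FL for the 20 named genes whose interaction passed. The genes were named with their BM differences known. The largest gaps are those of Il7r and Csf1r, positive in BM and negative in FL, and of Dntt and Lmo7, negative in BM and near 0 in FL.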

How the data were processed

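Each sample is RNA of sorted cells on 1 Affymetrix Clariom S array. Extraction used RNeasy Micro columns, and 2 ng were labelled with the GeneChip Pico kit after 10 PCR cycles, per the labels' protocols. The authors deposited log2 signals, 1 per probe set and array, made in R 3.5.01 with oligo per the submitters' processing notes. How background, scaling between arrays and probe summaries were handled is not given in the sources used here. Precision is limited by the 3 arrays of a group, with a median SE of 0.17 (log2).

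Of 22203 probe sets, 19572 carried 1 symbol in the platform annotation, and all of these matched the RefSeq table. The other 2631 were left out. The brightest probe set stood for a gene with several, which set 67 aside and left 19505 genes. In R 4.3.3, limma 3.58.1 (lmFit, then eBayes) fitted the 6 group means to all 18 arrays, which gives 1 estimate of a gene's spread. The contrast was BM LT-HSC minus BM ST-HSC, and the interaction set it against the same contrast in FL. Genes were called where the p, adjusted after Benjamini and Hochberg across the genes tested, was under 0.05. On simulated data, 81.4% of changes of log2 1 and 99.0% of changes of log2 2 were recovered, with 4.95% false calls. The simulation had 200 changed genes among 19505 and 20 draws, and its rates need not hold for the calls on the real arrays.

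Members and lists were chosen with earlier results of these data known. Genes named are the 15 largest called differences in each direction with arrays that do not overlap, up to 4 members of each of 31 lists by absolute difference, every called member where a list has 5 or fewer, all sort and sex-linked markers, and those stated to be chosen after their values were seen. Alternatives left out arrays, rescaled arrays, dropped the dimmest 30% of genes, treated probe sets otherwise, used array weights, a trend with robust estimation, fewer arrays in the fit, a replicate block or a 2-fold minimum. Leaving out ST-HSC b and c together and a covariate for the interquartile range were added after seeing the data.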

Additional observations from a re-analysis of the deposited data

Results flagged for a closer look

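For 20 of the named genes the LT-HSC minus ST-HSC difference was unlike between BM and FL by the interaction term of limma at an adjusted p under 0.05, and this is what puts them here. The genes were named with their BM differences known, and the interaction contains that difference, so the sizes of these gaps tend to be overstated. Of all 19505 genes, 74 passed the interaction (0.379%). All 20 were also called without LT-HSC c of BM. The value, given on the log2 scale, is the difference in BM minus that in FL. It was positive for 13 genes: 2.88 for Il7r, 2.67 for Csf1r, 2.24 for Cavin2, 2.20 for Id2, 2.09 for Aif1, 1.98 for Ebf1, 1.98 for C1qa, 1.91 for Tm4sf1, 1.86 for Id3, 1.68 for Cdh5, 1.496 for Kdr, 1.49 for Vwf and 1.29 for Pf4. It was negative for Cd34 (-1.07), Vldlr (-1.23), Tespa1 (-1.26), Thbs1 (-1.90), Clnk (-1.996), Lmo7 (-2.33) and Dntt (-2.42).

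Il7r and Csf1r changed sign between the sources, with differences of 1.26 and 1.41 in BM and of -1.62 and -1.26 in FL. Id2, Id3 and Ebf1 also turned negative in FL, as their gaps of 2.20, 1.86 and 1.98 exceed their BM differences of 1.42, 0.96 and 1.26. Aif1, Tm4sf1, Dntt, Clnk and Lmo7 had opposite signs too, but with small differences in FL. Thbs1 did so in the other direction, at -0.94 in BM and 0.96 in FL. Cavin2, Vwf and Pf4 were positive in both sources, and Cd34 and Tespa1 were negative in both, so that the size and not the sign differed. Of the 20 genes, Ebf1 passed the interaction in each of the alternative fits that give one, and Dntt in 12 of 19.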

How the results depend on the processing

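Called genes numbered 334, and 101 to 812 with 1 of the 6 arrays left out. The interaction called 74 genes, and 40 to 517 with 1 array left out. Without the 3 narrow arrays 144 genes were called, with array weights 4940 (2159 by interaction), and at a difference of at least 2-fold 158. Only the 6 arrays compared gave 11 calls and only the 9 bone marrow arrays 79, fits with fewer arrays to estimate the spread. The median SE was also larger in these fits, at 0.192 and 0.176 in this order, against 0.167 in the main fit. The spread pooled over all groups in the main fit may thus understate that of the 6 arrays compared. The part of each in the lower counts was not tested. After the data were seen, leaving out ST-HSC b and c was added, with 47 calls (10 by interaction), and a covariate for the interquartile range, with 834 (233 by interaction). For the others the cause was not tested. Median centring, repeated quantile normalization, a common median and interquartile range, the filter on dim genes, the mean of probe sets, all probe sets and the trend with robust estimation kept the count within 1.5 times, at 307 to 475.

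Deviations from the group means correlated at 0.42 for a, -0.46 for b and 0.32 for c. Unlike letters reached 0.45 (LT-HSC b with ST-HSC a) and 0.55 (LT-HSC c with ST-HSC b). Narrow arrays correlated positively with narrow ones and wide with wide, and mixed pairs negatively. These values therefore cannot tell whether a letter marks paired samples. With a replicate block 244 genes were called, and 61 by interaction. No called gene named in the text changed sign under any alternative. Of uncalled genes, Mecom, at -0.17 to 0.45 with 1 array left out, turned to -0.17, -0.12 and -0.0090 without LT-HSC a, LT-HSC b and ST-HSC b, -0.14 with a common median and interquartile range and -0.092 with the covariate. Cd48, at -0.048 to 0.86 with 1 array left out, turned to -0.048 without LT-HSC c and -0.49 without the narrow arrays. Kit, at -0.21 to 0.013, turned to 0.013 without LT-HSC c and 0.0080 with array weights. Kdm5d, at -0.25 to 0.15, turned to 0.15 without LT-HSC b and 0.029 with a common median and interquartile range, and Eif2s3y turned to 0.028 without ST-HSC b and c.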

Other observations

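The called genes below lie outside the lists, were chosen after their values were seen and stand for no group. Dusp5, a phosphatase of ERK, was at 10.02, 9.36 and 9.22 in LT-HSC a, b and c and 10.95, 10.79 and 11.04 in ST-HSC (-1.40 ± 0.18). Rgs2, a brake on G protein signalling, was at 10.28, 9.72 and 9.98 against 10.91, 11.03 and 11.17 (-1.04 ± 0.16), and Gem, a small GTPase induced by mitogens, at 8.81, 8.35 and 8.20 against 9.73, 9.60 and 9.62 (-1.19 ± 0.20). These 3 separated the groups and were called with each of the 6 arrays left out. None of them kept its call in every alternative fit, where the smallest differences in size were 1.24, 0.90 and 1.05, in this order. The salt-inducible kinase Sik1 (-1.25 ± 0.26), the nuclear protein Csrnp1 (-1.23 ± 0.27) and the phosphodiesterase Pde4b (-1.37 ± 0.26) were lower too, and lost their calls without ST-HSC b (adjusted p = 0.0817, 0.0729 and 0.0529) or ST-HSC c (0.108, 0.11 and 0.0613), Sik1 and Csrnp1 also without LT-HSC b (0.0561 and 0.0532).

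Pros1, the anticoagulant protein S, was at 8.35, 8.84 and 8.87 in LT-HSC and 8.03, 7.50 and 7.81 in ST-HSC (0.90 ± 0.16). It was called with each array left out but not in every alternative fit, with a smallest difference of 0.56. Tfpi, the inhibitor of the tissue factor pathway, was at 9.08, 9.13 and 9.73 against 8.35, 8.63 and 8.29 (0.89 ± 0.18), and coagulation factor V (F5) at 8.24, 8.20 and 9.24 against 7.57, 7.52 and 7.14 (1.15 ± 0.26). Tfpi lost its call without ST-HSC c (adjusted p = 0.11), and F5 without LT-HSC c, ST-HSC b or ST-HSC c (0.0566, 0.0817 and 0.183). Id2 and Id3, inhibitors of helix-loop-helix factors, were higher by 1.42 ± 0.26 and 0.96 ± 0.23, with LT-HSC c the highest array of both. Id2 lost its call without ST-HSC c (0.0689), and Id3 without LT-HSC c, ST-HSC b or ST-HSC c (0.0769, 0.118 and 0.213). Vldlr, a lipoprotein receptor, was at 7.33, 7.08 and 7.59 against 8.86, 8.68 and 8.63 (-1.39 ± 0.14), and Sox4, a factor of progenitor growth, at 10.05, 9.79 and 8.88 against 10.89, 10.49 and 10.84 (-1.17 ± 0.21). Both separated the groups and were called with each array left out. Neither kept its call in every alternative fit, where the smallest differences in size were 1.26 for Vldlr and 0.82 for Sox4.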
